A study of Mus musculus with 34 samples.

Results

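Mast cells were followed through 9 genes that encode surface receptors, enzymes and a transcription factor of these cells: Kit, Fcer1a, Ms4a2, Cd200r3, Mrgprb1, Mrgprb2, Hdc, Cyp11a1 and Gata2. All 9 were found by symbol in both expression tables, among 32098 genes listed in each. The genes were chosen by their known place in mast cells and with earlier results of these data in view, in which mast cell genes stood higher on high fat diet (HFD) at 20 weeks and the HFD effect differed between 8 and 20 weeks. The values of 8 and 20 weeks that selected the genes are therefore given as a description. Members called at the threshold in those libraries are counted beside the share of all genes called, with no p-value of a member, and nothing is read from those counts. The libraries of 34 weeks are the only ones for which p-values of single members are given, and their results were also known at the choice. RNA came from the stromal vascular fraction (SVF) of visceral fat, the cells that pellet after collagenase digestion while the adipocytes float. The mice were male C57BL/6J (strain given as C57BL/6 in the sample characteristics). They were started at 6 weeks of age on control chow (CHOW) or on HFD with 60% of its calories from fat, and all of them were fasted for some hours before collection. The groups held 4 CHOW and 6 HFD libraries after 8 weeks (14 weeks of age), 5 CHOW and 6 HFD after 20 weeks (26 weeks of age), and 7 CHOW and 6 HFD after 34 weeks (40 weeks of age). The labels do not say whether each library was 1 mouse, so the p-values measure the spread between these libraries, and the older groups were also older mice.

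Mast cells are long-lived tissue cells of the blood lineage that mature in place under stem cell factor, the ligand of KIT. The IgE receptor FcεRI on their surface, built from an α chain (Fcer1a), a β chain (Ms4a2) and a shared γ chain (Fcer1g), releases granules with histamine and proteases when antigen crosslinks bound IgE. In adipose tissue they lie along vessels and between adipocytes, and they are known to gather in the fat of obese animals. Expression is given in TPM (transcripts of a gene per fixed total of transcripts), a length-corrected share of each library, so levels can be compared between genes. A log2 fold change is a difference of log2(TPM + 1), which understates changes of genes near 1 TPM. In a bulk pellet, more mast cells and more RNA of a gene per mast cell cannot be told apart.

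Promoters were searched for short GATA motifs because GATA2, itself a member, binds such motifs and most members varied together, and the 4 windows that held one are printed. RefSeq (GRCm38.p6) gave 12 start sites for the 9 members, each with a window of 300 bases from 250 before to 50 after the start, written along the strand of the gene. Capitals mark AGATAA or TGATAA, or their reverse complements TTATCT and TTATCA.
Ms4a2, chr19:11623670-11623969, - strand: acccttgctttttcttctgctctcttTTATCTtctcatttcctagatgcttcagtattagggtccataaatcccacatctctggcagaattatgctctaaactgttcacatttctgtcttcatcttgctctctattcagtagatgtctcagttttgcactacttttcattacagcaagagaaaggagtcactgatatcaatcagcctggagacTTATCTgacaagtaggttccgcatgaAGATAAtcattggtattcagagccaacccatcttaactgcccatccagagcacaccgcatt
Fcer1a, chr1:173227180-173227479, - strand: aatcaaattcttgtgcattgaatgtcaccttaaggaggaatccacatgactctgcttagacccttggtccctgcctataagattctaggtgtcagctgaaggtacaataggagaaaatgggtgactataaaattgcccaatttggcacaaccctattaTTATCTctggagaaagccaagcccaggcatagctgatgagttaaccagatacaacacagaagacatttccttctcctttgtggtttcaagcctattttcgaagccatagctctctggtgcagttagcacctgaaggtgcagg
Cd200r3, chr16:44943428-44943727, + strand: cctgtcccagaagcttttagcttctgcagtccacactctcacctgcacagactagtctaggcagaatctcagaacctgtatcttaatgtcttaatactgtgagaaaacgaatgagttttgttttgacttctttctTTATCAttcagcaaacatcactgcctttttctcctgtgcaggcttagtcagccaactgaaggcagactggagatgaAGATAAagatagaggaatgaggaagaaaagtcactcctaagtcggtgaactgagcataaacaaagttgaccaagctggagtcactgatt
Mrgprb2, chr7:48558037-48558336, - strand: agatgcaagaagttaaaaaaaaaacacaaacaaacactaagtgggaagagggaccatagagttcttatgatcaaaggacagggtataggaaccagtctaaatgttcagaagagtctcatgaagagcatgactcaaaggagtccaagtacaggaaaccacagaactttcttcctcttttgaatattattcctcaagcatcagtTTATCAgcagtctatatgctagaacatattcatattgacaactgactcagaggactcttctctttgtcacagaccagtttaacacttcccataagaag
Ms4a2, the β chain of the IgE receptor, held AGATAA 3 times, with first bases at -224, -37 and -11 from the start. Cd200r3 held AGATAA at -39 and TGATAA at -115. Fcer1a held AGATAA at -92 and Mrgprb2 TGATAA at -48. Neither motif was found on either strand in the windows of Kit (2 windows), Mrgprb1, Hdc, Cyp11a1 (2) and Gata2 (2). Of all 32851 promoter windows of the same length, 18.61% held AGATAA or TGATAA, 11.18% AGATAA and 9.053% TGATAA, against 4 of the 12 member windows with either. The motifs do not overlap each other in these windows. An E-box (CANNTG) was in 9 of the 12 windows and in 72.31% of all windows. A match shows that these letters occur in the window and is no evidence of binding. The start site of Fcer1a in RefSeq lies just upstream of the gene's limit in gencode M21.

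The libraries held between 13200 and 17213 genes at 1 TPM or more, and their read depth is unknown from TPM. RNA of neighbouring tissue passed set limits in 9 of the 34 libraries, called libraries with RNA of other tissues further on. Others held less of it, with summed germ cell markers of up to 555 TPM on CHOW at 8 weeks and 246 TPM on CHOW at 20 weeks. Summed germ cell markers exceeded 2000 TPM in HFD 20 week replicates 3, 4 and 5 and HFD 34 week replicates 1 and 2, seminal vesicle markers reached 123060 TPM in HFD 8 week replicate 3, and adipocyte markers exceeded 20000 TPM in CHOW 34 week replicates 5, 6 and 7. These limits were set after the values were seen. Counts of called members are given with and without these libraries. Correlations, ratios to the proteases and calls of partner, marker and paralog genes are given with all libraries only.

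Kit, the receptor tyrosine kinase for stem cell factor (ENSMUSG00000005672.12, chromosome 5, 75574916 to 75656722, + strand), stood higher on HFD at 20 and 34 weeks. At 8 weeks it was at 7.45, 8.45, 10.2 and 9.25 TPM in CHOW replicates 1 to 4, and at 5.48 to 16.5 TPM with a median of 12.0 in the 6 HFD libraries. At 20 weeks it was at 6.67, 10.1, 7.30, 8.91 and 7.03 TPM on CHOW and at 13.95 to 30.0 TPM with a median of 18.5 on HFD. The groups of 8 weeks overlapped, whereas at 20 weeks every HFD library lay above every CHOW library. The log2 difference of HFD from CHOW was 0.28 (SE 0.25) at 8 weeks and 1.20 (SE 0.23) at 20 weeks. At 34 weeks Kit ranged from 1.79 to 15.4 TPM with a median of 4.53 on CHOW and from 5.33 to 28.0 TPM with a median of 20.2 on HFD. CHOW replicate 4 of 34 weeks, the highest of its group, lay above HFD replicates 1 and 2, which also held germ cell RNA. Over the 21 libraries of 8 and 20 weeks Kit had an r of 0.771 with the sum of 8 macrophage markers and of 0.532 with that of 5 mast cell proteases, and of 0.786 with that of 4 melanocyte markers, which never exceeded 11.7 TPM. Of the macrophage markers 3 were called higher on HFD at 20 weeks. With the sum of 5 erythroid markers, all called lower on HFD at 20 weeks, r was -0.764 for Kit. For the other members but Gata2 it was -0.56 to -0.682. The part of these cells in the Kit values was not tested.

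Fcer1a, the α chain that binds IgE (ENSMUSG00000005339.10, chromosome 1, 173221284 to 173227214, - strand), had the widest range of the receptors in TPM. At 8 weeks it was at 5.28, 4.79, 7.14 and 10.9 TPM on CHOW and at 1.10 to 5.06 TPM with a median of 2.63 on HFD, lower on HFD by a log2 difference of -1.07 (SE 0.41). At 20 weeks it was at 16.1, 21.5, 8.34, 14.05 and 6.86 TPM on CHOW and at 13.5 to 62.2 TPM with a median of 50.0 on HFD, a difference of 1.54 (SE 0.38). The order of the diets was thus opposite at the 2 times, with a small overlap at each: 2 HFD libraries of 8 weeks lay above the lowest CHOW library, and HFD 20 week replicate 4, at 13.5 TPM, lay within the CHOW range. At 34 weeks the range was 1.46 to 36.8 TPM with a median of 5.92 on CHOW and 18.1 to 68.9 TPM with a median of 44.4 on HFD. CHOW replicate 4 lay among the HFD libraries, and the other 6 CHOW libraries, none above 11.9 TPM, lay below all 6.

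Ms4a2, the β chain that amplifies the receptor's signal (ENSMUSG00000024680.12, chromosome 19, 11615523 to 11623719, - strand), was near 1 TPM in CHOW and young HFD mice. It was at 1.21, 0.460, 0.348 and 1.64 TPM on CHOW and 0.136 to 1.38 TPM with a median of 0.827 on HFD at 8 weeks, and at 4.50, 2.25, 0.517, 1.10 and 1.14 TPM on CHOW and 2.21 to 7.72 TPM with a median of 5.18 on HFD at 20 weeks. CHOW 20 week replicate 1 lay above HFD replicates 4 and 5, the lowest of their group, and CHOW replicate 2 just above HFD replicate 4. At 34 weeks it ranged from 0.478 to 4.22 TPM with a median of 0.779 on CHOW and from 2.88 to 10.6 TPM with a median of 8.28 on HFD. CHOW replicate 4 lay above HFD replicate 1, and no other values crossed. The HFD difference was 1.11 (SE 0.32) at 20 weeks. The γ chain gene Fcer1g, which macrophages and other myeloid cells use as well, was at 463 ± 237 TPM (SD, n = 5) on CHOW and 675 ± 149 TPM (n = 6) on HFD at 20 weeks, far above both, and did not pass the test in any of the 6 comparisons.

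Cd200r3, an activating receptor of mast cells and basophils (ENSMUSG00000036172.17, chromosome 16, 44943678 to 44981380, + strand), separated the diets at 20 weeks without overlap. It was at 1.04, 2.46, 1.22 and 3.14 TPM on CHOW and 0.589 to 4.31 TPM with a median of 1.99 on HFD at 8 weeks, and at 2.24, 2.04, 1.87, 2.24 and 1.12 TPM on CHOW and 3.14 to 14.2 TPM with a median of 7.21 on HFD at 20 weeks. The 3 lower groups had means of 1.90 to 2.01 TPM, and neighbours in that order overlapped. At 34 weeks it ranged from 0 to 2.55 TPM with a median of 0.464 on CHOW, where it was listed at 0 in replicate 6, and from 2.59 to 8.48 TPM with a median of 5.68 on HFD. The ranges met but did not cross, with CHOW replicate 4 at 2.55 TPM just under HFD replicate 1 at 2.59 TPM.

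Mrgprb2, the receptor through which basic peptides and many drugs release mast cell granules without IgE (ENSMUSG00000050425.2, chromosome 7, 48550965 to 48558086, - strand), and its paralog Mrgprb1 (ENSMUSG00000070547.4, chromosome 7, 48444113 to 48456342, - strand) varied together. Mrgprb2 was at 1.97, 1.38, 0.944 and 1.27 TPM on CHOW and 0.261 to 1.73 TPM with a median of 0.653 on HFD at 8 weeks, and at 1.63, 2.10, 0.780, 1.06 and 2.32 TPM on CHOW and 1.44 to 9.24 TPM with a median of 7.34 on HFD at 20 weeks. HFD 20 week replicate 4 lay within the CHOW range, and the other 5 HFD libraries lay above it. Mrgprb1 was at 5.90, 4.18, 1.44 and 4.89 TPM on CHOW and 1.02 to 3.90 TPM with a median of 2.19 on HFD at 8 weeks, and at 5.14, 5.90, 5.62, 5.69 and 5.67 TPM on CHOW and 4.87 to 37.3 TPM with a median of 20.4 on HFD at 20 weeks. The CHOW libraries of 20 weeks lay within a narrow band, and HFD replicate 4 fell just under it. At 34 weeks Mrgprb2 ranged from 0 to 1.51 TPM with a median of 0.723 on CHOW (listed at 0 in replicate 6) and from 0.871 to 10.9 TPM with a median of 5.78 on HFD, and Mrgprb1 from 0.475 to 6.69 TPM with a median of 1.23 and from 2.40 to 19.4 TPM with a median of 14.97. HFD replicate 1, at 0.871 TPM for Mrgprb2 and 2.40 TPM for Mrgprb1, was the only HFD library inside the CHOW range for each gene. The paralogs lie on the same strand of chromosome 7 and each value may hold reads of the other.

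Hdc, which encodes histidine decarboxylase, the enzyme that makes histamine (ENSMUSG00000027360.5, chromosome 2, 126593667 to 126619299, - strand), was the most abundant member in 30 of the 34 libraries. At 8 weeks it was at 32.8, 49.9, 156 and 56.0 TPM on CHOW and at 13.7 to 35.6 TPM with a median of 26.9 on HFD. CHOW 8 week replicate 3 stood apart at 156 TPM. That library also had the highest sum of the 5 neutrophil markers, 2047 TPM, against 30.1 to 1416 TPM in the other 33 libraries, and neutrophils can make histamine; the part of these cells in the value was not tested. At 20 weeks Hdc was at 55.2, 98.5, 47.4, 45.2 and 47.01 TPM on CHOW and 49.0 to 162 TPM with a median of 115 on HFD. At 34 weeks it ranged from 4.07 to 59.0 TPM with a median of 14.1 on CHOW and from 22.7 to 115 TPM with a median of 76.4 on HFD. The diets overlapped at all 3 times. The HFD difference was -1.33 (SE 0.39) at 8 weeks and 0.84 (SE 0.36) at 20 weeks.

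Cyp11a1, the mitochondrial side-chain cleavage enzyme that turns cholesterol into pregnenolone (ENSMUSG00000032323.13, chromosome 9, 58006411 to 58027023, + strand), separated the diets at 8 weeks in one direction and at 34 weeks in the other. At 8 weeks it was at 2.58, 3.16, 3.41 and 6.10 TPM on CHOW and 1.10 to 2.27 TPM with a median of 1.73 on HFD, every HFD library below every CHOW library. At 20 weeks it was at 4.30, 5.59, 6.53, 5.30 and 5.94 TPM on CHOW and 5.70 to 23.5 TPM with a median of 15.9 on HFD. HFD replicate 4 of 20 weeks lay within the CHOW range and the other 5 above it. At 34 weeks the range was 0.541 to 4.27 TPM with a median of 1.56 on CHOW and 6.72 to 22.7 TPM with a median of 13.9 on HFD, without overlap. The log2 difference of HFD from CHOW was -0.80 (SE 0.29) at 8 weeks and 1.20 (SE 0.27) at 20 weeks. A long non-coding gene, Gm17322, overlaps Cyp11a1 on the same strand, and reads may have been shared out wrongly between the pair.

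Gata2, the zinc finger factor needed for mast cell development and also active in endothelium and blood progenitors (ENSMUSG00000015053.14, chromosome 6, 88193891 to 88207032, + strand), did not follow the receptors at 8 and 20 weeks. It was at 30.7, 29.1, 15.3 and 28.4 TPM on CHOW and 13.9 to 42.99 TPM with a median of 25.5 on HFD at 8 weeks, and at 27.5, 21.6, 22.7, 15.9 and 17.7 TPM on CHOW and 15.5 to 28.0 TPM with a median of 26.3 on HFD at 20 weeks. The 4 group means lay between 21.1 and 26.5 TPM and all neighbouring groups overlapped. The HFD difference was -0.03 (SE 0.27) at 8 weeks and 0.17 (SE 0.26) at 20 weeks, with a 95% interval of -0.37 to 0.70 at 20 weeks. At 34 weeks it ranged from 4.99 to 14.9 TPM with a median of 12.0 on CHOW and from 8.28 to 51.4 TPM with a median of 19.9 on HFD. HFD replicate 6 of 34 weeks, at 51.4 TPM, held the highest value of any library.

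**Figure D1:**
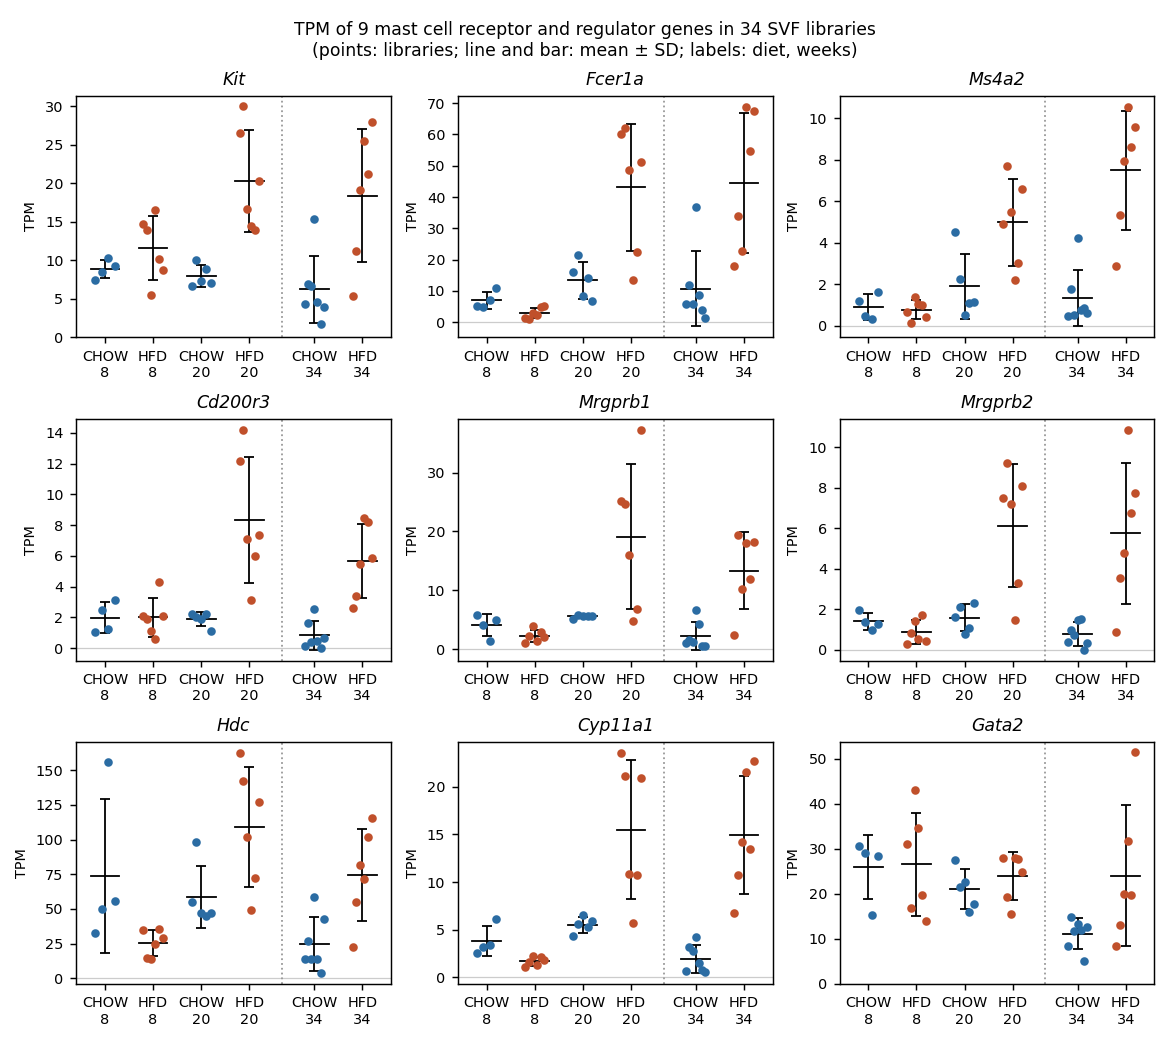
TPM of each of the 9 genes (vertical axes, linear) in the 6 groups of diet and weeks, with blue points for CHOW and orange points for HFD libraries and lines and bars for the mean ± SD; the dotted line parts the 2 tables, which were made separately. The HFD points mostly stand above the CHOW points at 34 weeks in every panel, and at 20 weeks in every panel but Gata2. The 4 group means of Gata2 at 8 and 20 weeks lie between 21.1 and 26.5 TPM.

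At 8 weeks HFD was lower in 8 of the 9 members, with a median log2 difference of -0.41, beside a median of -0.08 over all 16808 genes tested. In limma 0 of the 9 were called at the adjusted threshold of 0.05 and 3 had an unadjusted p under 0.05. Of all genes tested, 0.0238% were called (4 genes) and 1630 had an unadjusted p under 0.05. The largest differences were -1.33 for Hdc and -1.07 for Fcer1a.

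At 20 weeks HFD libraries held more transcripts of the receptors. The differences ran from 1.11 for Ms4a2 to 1.58 for Cd200r3 among the 6 receptors and Cyp11a1, with 0.84 for Hdc and 0.17 for Gata2, and their median was 1.20 beside 0.08 over all genes. The genes were chosen with this contrast in view, so the count of 7 of 9 called higher, where 14.3% of all genes tested were called (2405 genes, of which 1566 were higher), restates the choice. Without single libraries the differences of those 7 genes lay between 0.92 and 1.82, and the count was 5 to 7. Of all genes tested, 1255 to 3095 were called in those runs. Mrgprb1 lost its call without CHOW 20 week replicate 1, 3, 4 or 5 or HFD 20 week replicate 1 or 2. Ms4a2 lost it without CHOW 20 week replicate 3, 4 or 5 or HFD 20 week replicate 2. Without the 4 libraries of 8 and 20 weeks that held RNA of other tissues the count was 8. Of 16041 genes tested, 1407 were called there. Fcer1a then differed by 2.14 and Cyp11a1 by 1.81. HFD 20 week replicates 4 and 5, which held 2994 and 12689 TPM of germ cell markers, had the lowest values of their group for every member but Gata2. Replicate 3 of that group, also past the limit at 2388 TPM, lay above both for each of those members. The part of germ cell RNA in these values was not tested. With the mean level of 10 adipocyte markers as a covariate the count was 0, where 74 of all 16808 genes tested were called. The differences were then 1.71 for Cd200r3, 1.41 for Mrgprb1, 1.30 for Ms4a2, 1.24 for Fcer1a and for Mrgprb2, 1.03 for Cyp11a1 and 0.74 for Kit. Hdc changed from 0.84 to -0.08. Those markers summed to 4847 to 7992 TPM on CHOW and 3315 to 5408 TPM on HFD, with 6 of 10 called lower and 1 higher, so they moved with diet, and their part in the member differences was not tested.

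On CHOW no member was called from 8 to 20 weeks in limma, none had an unadjusted p under 0.05, and 0.613% of all genes tested were called (103 genes). The differences of 20 from 8 weeks ran from -0.26 for Gata2 to 0.80 for Fcer1a. On HFD 8 of the 9 members stood higher at 20 than at 8 weeks, all but Gata2. All 8 were called, where 8.78% of all genes were called (1475 genes), in a contrast that took part in the choice. Fcer1a differed most, by 3.41 (SE 0.37), from a mean of 2.96 ± 1.68 TPM to 43.1 ± 20.3 TPM (SD, n = 6 each), with no overlap. Cyp11a1 differed by 2.48 (SE 0.26), Mrgprb1 by 2.39 (SE 0.37) and Hdc by 2.04 (SE 0.35). Kit differed by 0.78, the smallest of the 8, and HFD libraries of 8 weeks reached into its range at 20 weeks. Without the libraries that held RNA of other tissues the count was also 8, where 750 of 16041 genes tested were called. With the adipocyte covariate the count was 2, where 94 of all genes were called. The differences were then 3.07 for Fcer1a, 2.50 for Mrgprb1, 2.29 for Cyp11a1, 1.93 for Ms4a2, 1.77 for Cd200r3 and 1.71 for Mrgprb2, and those of Hdc and Kit were smaller than without it, at 1.00 and 0.25.

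The diet by time interaction asks whether the HFD difference at 20 weeks was unlike that at 8 weeks. Fcer1a, by 2.61 (SE 0.56), and Cyp11a1, by 2.00 (SE 0.40), were called, 2 of the 9, where 0.297% of all genes tested were called (50 genes). This difference was in view when the genes were chosen, so the count is a description. The other receptors and Hdc had differences of 0.92 for Kit to 2.18 for Hdc, and Gata2 of 0.19. The median over all genes was 0.18 and moved to 0.03 under median-ratio scaling. The count was 0 under that scaling, with Fcer1a at 2.44 and Cyp11a1 at 1.84, and 84 of all genes were called. Without single libraries Fcer1a lay between 2.40 and 2.90 and Cyp11a1 between 1.80 and 2.23. The count was 5 without the libraries with other tissue, where 63 of 16041 genes tested were called. It also changed with single libraries, and was 0 without CHOW 8 week replicate 3 or 4, HFD 8 week replicate 1 or 4, CHOW 20 week replicate 1, 3, 4 or 5, or HFD 20 week replicate 1, 2 or 6. It was 1 without CHOW 8 week replicate 1 or 2, HFD 8 week replicate 3 or 6, or HFD 20 week replicate 3, and 4 without HFD 20 week replicate 4. Of all genes tested, 13 to 41 were called in the runs with 0, 26 to 62 in those with 1 and 69 in that with 4.

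**Figure D2:**
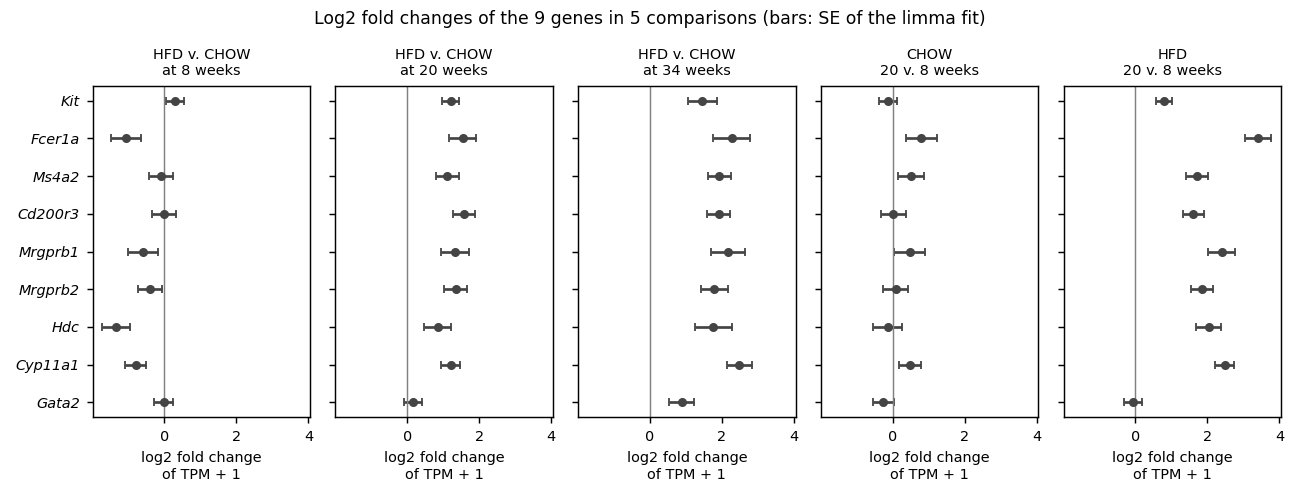
Log2 fold changes of TPM + 1 (horizontal axes) of the 9 genes in 5 comparisons, with bars for the SE of the limma fit. At 8 weeks 8 of 9 points lie left of 0, at 20 and 34 weeks all 9 lie right of it, and on HFD from 8 to 20 weeks Fcer1a lies farthest right at 3.41.

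At 34 weeks all 9 members stood higher on HFD, and 3 of them passed the test, where 0.243% of all genes tested were called (34 of 13982, all higher). The values of these libraries did not draw attention to the genes, but their results were known when the list was made. The p-values are thus not independent of the choice. Cyp11a1 rose by 2.48 (SE 0.34) on the log2 scale, from 1.96 ± 1.46 TPM (SD, n = 7) to 14.9 ± 6.20 TPM (n = 6), with an adjusted p of 0.0171 in limma. Ms4a2 rose by 1.93 (SE 0.33), from 1.33 ± 1.35 TPM to 7.49 ± 2.88 TPM, and Cd200r3 by 1.92 (SE 0.32), from 0.827 ± 0.922 TPM to 5.67 ± 2.42 TPM, both with a limma adjusted p of 0.0358. These last 2 genes reached 1 TPM in only 2 of 7 CHOW libraries and passed the filter on low values through the 6 HFD libraries, where they are high. Without the filter both had a limma adjusted p of 0.0775 and were not called, and Cyp11a1 had 0.0445. Cyp11a1 was higher in each HFD library than in any CHOW library, as was Cd200r3, and Ms4a2 was higher than the CHOW median in 6 of 6.

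The other 6 members did not pass at 34 weeks. Their log2 differences were 2.27 (SE 0.52) for Fcer1a with a limma adjusted p of 0.112, 2.17 (SE 0.47) for Mrgprb1 with 0.0852, and 1.79 (SE 0.37) for Mrgprb2 with 0.0749. Hdc was at 1.76 (SE 0.51) with a limma adjusted p of 0.191, Kit at 1.45 (SE 0.40) with 0.170 and Gata2 at 0.88 (SE 0.35) with 0.312. The difference of Fcer1a was larger than that of Ms4a2, but its CHOW libraries spread from 1.46 to 36.8 TPM. Each of the 9 had an unadjusted p under 0.05 in limma, as did 1848 of all 13982 genes tested. Mrgprb2 also reached 1 TPM in only 2 of 7 CHOW libraries and entered the test through the HFD libraries.

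The calls of 34 weeks depended on single libraries. The count was 0 when CHOW replicate 7 or HFD replicate 2, 3 or 4 was left out, and 1 when it was CHOW replicate 1, 3 or 5, or else HFD replicate 5 or 6. It was 5 without HFD replicate 1, which held 5154 TPM of germ cell markers, and 6 without CHOW replicate 4. Calls over all genes changed too, to 0, 0, 1 and 0 without CHOW replicate 7 and HFD replicates 2, 3 and 4. They were 4 to 13 in the runs with 1 member called, 57 without HFD replicate 1 and 109 without CHOW replicate 4. Cyp11a1 kept its call without 9 of the 13 libraries in turn, with a limma adjusted p between 0.00411 and 0.0663, Cd200r3 without 4 and Ms4a2 without 3. The size of the differences moved less, from 2.34 to 2.67 for Cyp11a1, from 1.82 to 2.15 for Ms4a2 and from 1.79 to 2.10 for Cd200r3. Without the 5 libraries of 34 weeks with RNA of other tissues no member of the 8 tested was called, 4 CHOW against 4 HFD libraries, at differences of 2.43 for Cyp11a1, 2.08 for Ms4a2 and 2.01 for Cd200r3. Of all 13245 genes tested in that run, 1 was called. With a pseudocount of 0.1 TPM in place of 1, 0 members and 0 of all 13982 genes were called. With the adipocyte covariate 0 members and 0 of all genes were called. The differences with it were 2.03 for Cyp11a1, 1.59 for Ms4a2 and 1.48 for Cd200r3. The 10 adipocyte markers summed to 3029 to 71230 TPM on CHOW and 2868 to 5899 TPM on HFD, all 10 with lower values on HFD, and their part was not tested.

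**Figure D3:**
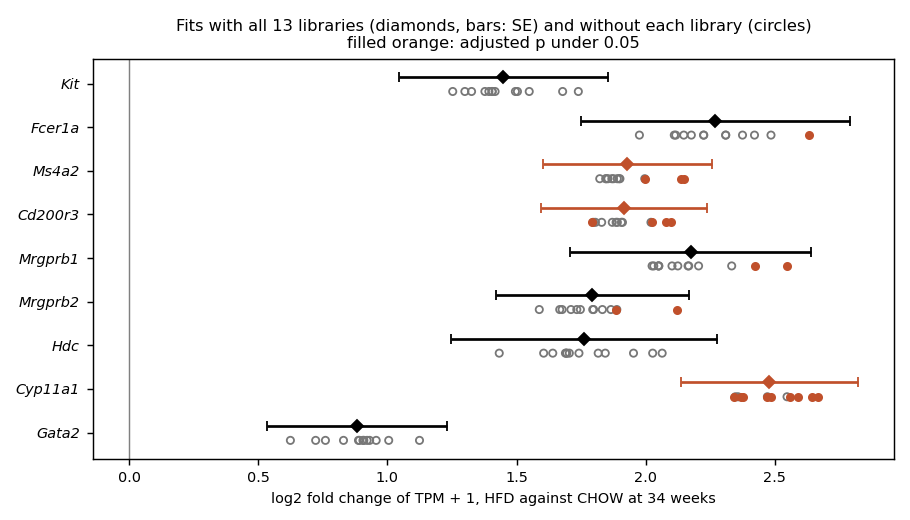
Log2 fold change of TPM + 1 on HFD against CHOW at 34 weeks (horizontal axis) for each gene, as diamonds with the SE from all 13 libraries and as circles from fits without each library in turn; filled orange marks an adjusted p under 0.05. All circles lie right of 0, from 0.62 for Gata2 to 2.67 for Cyp11a1, while the orange fill comes and goes with single libraries.

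At 8 and 20 weeks most members varied across libraries as the granule proteases did. These 5 genes (Cma1, Mcpt4, Tpsb2, Tpsab1 and Cpa3) encode the enzymes stored in mast cell granules. Their sum ranged from 102 to 255 TPM on HFD at 8 weeks, 281 to 548 TPM on CHOW at 8 weeks and 484 to 690 TPM on CHOW at 20 weeks to 577 to 2794 TPM on HFD at 20 weeks. Over the 21 libraries of 8 and 20 weeks, Pearson's r with the log2 of that sum was 0.98 for Fcer1a, 0.975 for Cyp11a1, 0.93 for Mrgprb1, 0.91 for Mrgprb2, 0.865 for Ms4a2, 0.82 for Hdc and 0.81 for Cd200r3. It was 0.53 for Kit and -0.14 for Gata2. Over the 13 libraries of 34 weeks, r was 0.76 for Gata2, 0.81 for Hdc and 0.93 to 0.98 for the other 7. At 34 weeks the members followed the sum of 4 basophil markers about as closely, with r from 0.827 for Gata2 to 0.953 for Mrgprb2, and that of 7 innate lymphoid markers with r from 0.754 for Hdc to 0.901 for Mrgprb2. At 8 and 20 weeks these r were -0.161 to 0.643 and -0.431 to 0.321. With the sum of 5 eosinophil markers r was 0.586 to 0.828 at 34 weeks and -0.527 to 0.103 at 8 and 20 weeks. The innate lymphoid sum was 16.6 to 37.1 TPM on CHOW and 14.8 to 64.8 TPM on HFD at 34 weeks, and the part of these cells in the member values was not tested. That sum holds Il1rl1, at a mean of 19.8 TPM at 34 weeks, which is also listed here among cytokine receptors of mast cells. These r are thus no measure of innate lymphoid cells alone. All r are descriptions over libraries of different diets and ages, which share library composition.

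Members were also set against the protease sum of the same library. The levels of Cyp11a1, Fcer1a, Ms4a2, Mrgprb1 and Mrgprb2 differed by less than their larger SD between the diets at 8 and 20 weeks. Those of Gata2 and Cd200r3 differed by more at both times, that of Kit at 8 weeks only and that of Hdc at 20 weeks only. Cyp11a1 stood at 1.02% ± 0.0891 (SD, n = 4) of the protease TPM on CHOW and 1.06% ± 0.268 (n = 6) on HFD at 8 weeks, and at 1.04% ± 0.223 (n = 5) and 0.901% ± 0.199 (n = 6) at 20 weeks. Fcer1a was at 2.42% ± 0.843 and 2.41% ± 0.163 at 20 weeks. At 34 weeks Cyp11a1 differed by slightly more than its larger SD, at 0.585% ± 0.208 (n = 7) on CHOW and 0.795% ± 0.151 (n = 6) on HFD, and Fcer1a by less, at 2.75% ± 0.873 and 2.25% ± 0.339. Kit was at 8.24% ± 5.09 on HFD at 8 weeks against 2.55% ± 0.643 on CHOW, and at 1.48% ± 0.163 and 1.33% ± 0.601 at 20 weeks. Gata2 was at 17.6% ± 9.19 on HFD at 8 weeks and 1.92% ± 1.61 at 20 weeks. Hdc stood at 10.6% ± 2.21 on CHOW and 6.55% ± 1.31 on HFD at 20 weeks.

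**Figure D4:**
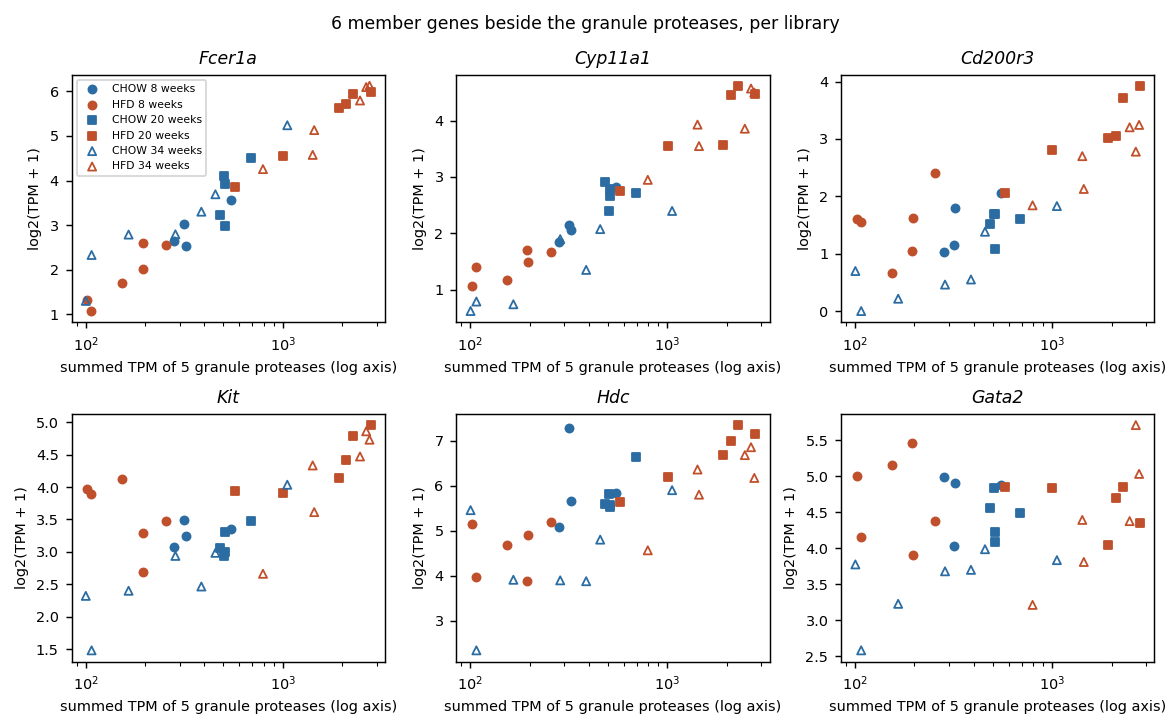
Log2(TPM + 1) of 6 members (vertical axes) beside the summed TPM of the 5 granule proteases (horizontal axes, logarithmic) in all 34 libraries; colour marks diet and the marker shape marks 8, 20 or 34 weeks. Fcer1a and Cyp11a1 follow the proteases closely (r of 0.982 and 0.975 at 8 and 20 weeks), Kit and Hdc hold high values in some libraries with few proteases, and Gata2 shows no trend at 8 and 20 weeks.

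The genes most like the members were named by a fixed rule, the 10 tested non-members with the highest r to the mean log2(TPM + 1) of the 9. At 8 and 20 weeks these were Tpsb2 (r = 0.976), Cpa3, Mrgprx2, Mcpt4, Cma1, Tph1, Tpsab1, Slc18a2, Mrgprx1 and Gzmb (r = 0.913) over 21 libraries. At 34 weeks they were Ube2v2 (r = 0.982), Slc18a2, Tpsb2, Cma1, Tpsab1, Mcpt4, Cpa3, Il13, Il1rl1 and Itga2b (r = 0.956) over 13 libraries. Slc18a2, the vesicle transporter that loads histamine and serotonin, and the 5 proteases were in both. Ube2v2, a ubiquitin conjugation cofactor that many cells express, was at a mean of 61.1 TPM. Each member was also set against the mean of the other 8. At 8 and 20 weeks r was -0.11 for Gata2, 0.62 for Kit, 0.75 for Hdc and 0.85 to 0.94 for the other 6, and at 34 weeks it was 0.83 for Gata2, 0.86 for Hdc and 0.92 to 0.96 for the other 7.

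The share of all genes called, 14.3% at 20 weeks and 8.78% from 8 to 20 weeks on HFD, stands beside each of the following counts of genes that work with the members, and no list is set apart from it. Of 13 genes of IgE receptor signalling, 3 rose on HFD at 20 weeks, Syk, Lat2 and Btk, by 0.81, 1.75 and 0.68. From 8 to 20 weeks on HFD 1 rose, the adaptor Gab2, by 0.74, and 0 were called in the other 4 comparisons. Macrophages and B cells use Syk and Btk too, and 3 of 8 macrophage markers were called higher at 20 weeks. The part of these cells in the rise of Syk and Btk was not tested. Of 10 tested genes among growth ligands and cytokine receptors, Il3ra rose on HFD at 20 weeks by 0.64, 1 of 10, and Il33 and Crlf2 rose from 8 to 20 weeks on HFD by 1.55 and 0.59. Kitl, the ligand of KIT, was not called in any comparison and was at 68.2 ± 6.76 TPM on CHOW and 59.6 ± 13.5 TPM on HFD at 20 weeks (SD, n = 5 and 6).

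Of 10 transcription factors that act with GATA2, 2 rose on HFD at 20 weeks and 1 fell. Mitf, needed for mast cells and also active in macrophages and melanocytes, rose by 1.11, and Lmo2, a bridging factor of GATA complexes, rose by 0.88. Gata1, the GATA factor of red cells, mast cells and eosinophils, fell by 1.56 on the log2 scale, from 3.44 ± 2.25 TPM to 0.427 ± 0.401 TPM. All 5 erythroid markers, and 3 of 4 tested eosinophil markers, also fell at 20 weeks, and their part in the fall of Gata1 was not tested. From 8 to 20 weeks Stat5a rose on CHOW by 1.53 and on HFD by 1.07, and Mitf and Runx1 rose on HFD by 0.82 and 0.97.

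Of the 5 tested genes of histamine handling and its receptors, Slc18a2 rose and the receptor gene Hrh1 fell on HFD at 20 weeks, by 1.04 and -0.73, and likewise from 8 to 20 weeks on HFD. Of 7 genes of lipid mediators and serotonin, 2 rose and 3 fell at 20 weeks. Hpgds, the prostaglandin D synthase of mast cells and macrophages, rose by 1.38, and Tph1, which starts serotonin synthesis, by 1.47. Ptgs1, Ltc4s and Alox5, of prostaglandin and leukotriene synthesis, stood at -1.48, -1.24 and -0.97. Tph1 was also called in the interaction, by 2.44. None of these lists of partner genes had a called gene at 34 weeks or at 8 weeks. Of all genes tested, 0.243% were called at 34 weeks and 0.0238% at 8 weeks. The 5 proteases were called higher on HFD at 20 weeks (5 of 5, by 1.36 to 1.71) and, in 3 of 5, at 34 weeks (Cma1, Mcpt4 and Cpa3).

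Few genes that work with Cyp11a1 in steroid synthesis passed the filter. Of 12 partner genes 5 were tested at 8 and 20 weeks and 4 at 34 weeks, and the sole call was Fdxr, ferredoxin reductase, which rose by 0.96 from 8 to 20 weeks on HFD. Cyp17a1 was under the filter in both tables, Hsd3b1 and Hsd3b6 likewise. The 5 Leydig cell markers, of the neighbouring testis, summed to 12.8 to 18.7 TPM on CHOW and 15.6 to 145 TPM on HFD at 20 weeks, and to 3.51 to 12.7 and 8.84 to 84.7 TPM at 34 weeks; 2 of the 5 were tested and 0 were called in any comparison. Their r with Cyp11a1 was -0.11 at 8 and 20 weeks and 0.435 at 34 weeks.

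Markers of other cells that express some of the members moved as follows. Basophils share Fcer1a, Ms4a2, Hdc and Cd200r3. Their defining protease gene Mcpt8 did not exceed 1.89 TPM in any library and did not reach the filter in either table. The 4 basophil markers summed to 12.3 to 30.6 TPM on CHOW and 9.59 to 23.9 TPM on HFD at 20 weeks, with 0 of 3 tested called. At 34 weeks they summed to 1.26 to 12.8 and 10.3 to 37.6 TPM, through Prss34 and Il4, with 0 of 2 tested called, and their part in the member differences there was not tested. Prss34 rose from 8 to 20 weeks on HFD by 2.00 while Itga2 fell. For Gata2, the 8 endothelial markers summed to 600 to 717 TPM on CHOW and 495 to 983 TPM on HFD at 20 weeks, with 0 of 8 called, and r with Gata2 was 0.395 over 21 libraries. For Kit, melanocyte markers summed to at most 11.7 TPM in any library; Mlana was called higher at 20 weeks by 1.77, and Dct did not exceed 1.14 TPM.

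Paralogs gave a further comparison. Of 11 paralogs of the members 6 were tested at 8 and 20 weeks. Cd200r4 and Cd200r1, relatives of Cd200r3 on macrophages and other myeloid cells, rose on HFD at 20 weeks by 1.52 and 1.48, and Gata1 and Gata3 fell. Of all genes tested, 14.3% were called in that comparison. Mrgprb3, Mrgprb4, Mrgprb5 and Mrgprb8 were listed at 0 in all libraries of 8 and 20 weeks and did not reach the filter at 34 weeks. Mrgprx1 and Mrgprx2, named above among the genes most like the members at 8 and 20 weeks, were not on this list.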

How the data were processed

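Poly(A) RNA of the SVF was sequenced from 34 libraries. The authors trimmed the reads with Trimmomatic, checked them with FastQC and MultiQC, quantified them with Salmon against the protein coding and lncRNA transcripts of gencode M10 and summed transcripts to genes; the versions were not given in sources used here. The deposited values are TPM, in 1 table for 8 and 20 weeks and 1 for 34 weeks. The authors ran their own tests on counts with DESeq2; counts were not used here, and read depth is unknown. No value was compared by test between the tables.

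IDs were matched to symbols through gencode M21 (GRCm38), 31791 of 32098. Genes reaching 1 TPM in 4 or more (8 and 20 weeks, 21 libraries) or in 6 or more libraries (34 weeks, 13 libraries) were tested on log2(TPM + 1) with limma 3.58.1 in R 4.3.3. The 4 groups of 8 and 20 weeks were fitted together and 34 weeks alone, with Benjamini-Hochberg adjustment over all genes tested and a two-sided threshold of 0.05. The fits were tested on simulated data. All 9 members are named, with genes of partner and cell marker lists past the threshold or defining a cell type, and the 10 genes most correlated with the members in each table. Members and lists were chosen with earlier results of these data known. Alternatives were another pseudocount, no filter, other scalings, sample weights, a replicate block, fits of 2 groups and leaving out each library; an adipocyte covariate and leaving out libraries with RNA of other tissues were added after the data were seen. Promoter windows came from RefSeq (GRCm38.p6).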

Additional observations from a re-analysis of the deposited data

Results flagged for a closer look

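In 54 groups (9 genes in 6 groups of 4 to 7 libraries), 5 held a value whose gap to its neighbour was large for the range of the group, where chance gives about 1 in 20 groups. CHOW 34 week replicate 4 was high in 3 of them, with Kit at 15.4 TPM, Fcer1a at 36.8 TPM and Ms4a2 at 4.22 TPM. Hdc was high in CHOW 20 week replicate 2, at 98.5 TPM, and Gata2 was low in CHOW 8 week replicate 3, at 15.3 TPM, the CHOW library with the highest Hdc.

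The HFD effect differed between 8 and 20 weeks in the interaction term for Fcer1a, by a log2 difference of 2.61, and for Cyp11a1, by 2.00. Both genes were lower on HFD at 8 weeks and higher at 20 weeks. These values took part in the choice of the genes and are given as a description.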

How the results depend on the processing

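No log2 difference of a called member reversed under any alternative run. Of the members' differences, 656 without a single library and 428 under other settings stayed within 1 SD of the replicates (8 and 20 weeks) or on the same side of the threshold (34 weeks). At 34 weeks 23 and 14 lost a call and 5 and 5 gained one, and at 8 and 20 weeks 20 under other settings moved by more than 1 SD. The 0 calls at 8 weeks and on CHOW over time held under every alternative. The adipocyte covariate left 0 calls at 20 weeks, 2 on HFD over time, 1 in the interaction and 0 at 34 weeks. In the interaction 2 members were called, against 1 with a pseudocount of 0.1 TPM, 0 without the filter, 0 with median-ratio scaling, 1 after rescaling without genes of other tissues, 6 with sample weights, 5 without the libraries with other tissue, and 0 to 4 without single libraries. At 34 weeks 3 were called, against 0 with a pseudocount of 0.1 TPM, 1 without the filter, 8 with sample weights, 0 without the libraries with other tissue (8 of 13 libraries left) and 0 to 6 without single libraries. The cause of these changes was not tested.

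With the replicate number as a block, 0 members were called in the interaction and 0 at 34 weeks, and the counts of 7 at 20 weeks and 8 on HFD over time did not change. The labels give no shared origin for equal numbers, and in no 2 groups compared directly did every same-numbered pair deviate together (r over 0.1), with r between -0.105 and 0.404. Between CHOW 8 week and HFD 20 week all 4 pairs did, at 0.101 to 0.167, and between HFD 8 week and HFD 20 week 4 of 6, so a pairing is not shown and not excluded.

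Counts over all genes moved more. At 34 weeks 34 genes were called, 294 with sample weights and 0 with a pseudocount of 0.1 TPM. At 20 weeks 2405 were called, 5092 with sample weights and 74 with the adipocyte covariate. On HFD over time 1475 were called, 2427 with median-ratio scaling and 94 with the covariate, and in the interaction 50 against 400 with sample weights and 32 without the filter. On CHOW over time 103 were called, 1659 with sample weights and 37 with the covariate, and at 8 weeks 4, against 209 and 0. Of the calls on HFD over time 1029 of 1475 were higher, 1428 of 2427 with median-ratio scaling and 827 of 1992 after rescaling; in the interaction these were 27 of 50, 29 of 84 and 25 of 61; on CHOW over time 77 of 103 and, rescaled, 135 of 282; and at 8 weeks 0 of 4, 5 of 8 and 2 of 5. TPM hold no depth, so counting error could not be given.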
